A study of Mus musculus with 12 samples.

Results

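The genes described here encode the mitochondrial respiratory chain and the ATP synthase, in the nucleus and in the mitochondrial DNA, of mouse leukemic bone marrow cells. Members were taken from a list of 52 symbols (50 nuclear encoded subunits, mt-Co1 and mt-Cytb), to which every other row named mt- was added. For a symbol with several rows the row with the highest mean over the 12 libraries was kept, and a mean under 1 FPKM (a unit that corrects a fragment count for transcript length and library size) would have removed a member. This gave 53 genes of 25263 symbols. They were 47 nuclear encoded genes and 6 mitochondrially encoded ones, of which 3 were mRNAs (mt-Co1, mt-Cytb and mt-Nd6) and 3 were tRNA rows (mt-Tf, mt-Ta and mt-Tp). No other row was named mt-. The remaining genes of the mitochondrial DNA, among them those of ATP synthase, are therefore not covered, and sums of mitochondrial genes below are partial. Atp5o, Ndufb8 and Cox4i1 had no row and were not analysed here, 0 members fell under 1 FPKM, and Ndufs8 was the 1 member with repeated rows. All 53 therefore passed the filter on low values.

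All cells were leukemic cells from adult bone marrow that carried MA9 (MLL-AF9, a leukemogenic fusion of the chromatin regulator MLL), and all had been transduced with a retrovirus and sorted for high GFP. The 12 libraries covered 4 combinations of genotype and virus, with 3 each. WT-GFP cells (wild type Hoxa cluster, strain label C57BL/6) received the control virus, and WT-Cre cells of the same genotype received Cre recombinase. Hoxa-flox cells (Hoxa cluster flanked by loxP sites, strain label C57BL/6J) received the control virus, and Hoxa-del cells of the same origin received Cre, which recombines loxP sites. The labels do not say how many mice or leukemias each group came from, or whether the replicates were separate cultures. The genotype, the strain label and the origin of the leukemia changed together and cannot be told apart. RNA was total RNA depleted of ribosomal RNA, sequenced from stranded libraries.

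The respiratory chain sits in the inner mitochondrial membrane. Complexes I (NADH dehydrogenase) and II (succinate dehydrogenase) pass electrons to ubiquinone, complex III passes them to cytochrome c, and complex IV (cytochrome c oxidase) passes them to oxygen. Complexes I, III and IV pump protons, and ATP synthase (complex V) uses the gradient to make ATP. Most subunits are encoded in the nucleus and imported, but complexes I, III, IV and V each contain subunits encoded by the mitochondrial DNA, whereas complex II does not. The mitochondrial DNA is transcribed from both strands into long precursors, from which tRNAs and mRNAs are cut. Acute myeloid leukemia cells are known to rely on oxidative phosphorylation.

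The 3 mitochondrial mRNAs lay at chrM:5328-6872 (mt-Co1, plus strand), chrM:14145-15288 (mt-Cytb, plus strand) and chrM:13552-14070 (mt-Nd6, minus strand) of GRCm38, by the GENCODE M21 annotation. They were 1545, 1144 and 519 bases long. The first 60 bases of each, with the start codon in capitals, are shown because mt-Nd6 is transcribed from the opposite strand and differs in composition from the other mRNAs.
mt-Co1: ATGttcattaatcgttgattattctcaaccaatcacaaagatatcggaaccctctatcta
mt-Cytb: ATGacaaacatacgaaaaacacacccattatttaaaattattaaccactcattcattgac
mt-Nd6: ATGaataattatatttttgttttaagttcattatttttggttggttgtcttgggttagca
Over the whole mRNA, mt-Nd6 held 28.1% G and 6.0% C, mt-Co1 16.1% G and 23.8% C, and mt-Cytb 12.2% G and 26.9% C. The tRNA rows were mt-Tf (phenylalanine, chrM:1-68, plus strand), mt-Ta (alanine, chrM:5018-5086, minus strand) and mt-Tp (proline, chrM:15356-15422, minus strand). Their sequences follow in DNA letters with the anticodon in capitals, since they are short and stand apart in level from one another.
mt-Tf: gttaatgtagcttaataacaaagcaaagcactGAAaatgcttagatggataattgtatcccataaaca
mt-Ta: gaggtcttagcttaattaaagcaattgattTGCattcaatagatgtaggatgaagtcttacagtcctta
mt-Tp: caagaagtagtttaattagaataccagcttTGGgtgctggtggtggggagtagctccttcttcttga
The 47 nuclear members were spread over 17 chromosomes.

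Within the floxed cells the libraries formed 2 sets across all genes that cut across the label: Hoxa-flox 1, Hoxa-flox 2 and Hoxa-del 2 (set A), and Hoxa-flox 3, Hoxa-del 1 and Hoxa-del 3 (set B). The sets were read from these same data and follow no label, so each result below is given by library, and where it rests on a set it is given for each set. The summed level of 8 Hoxa genes was 292 to 322 FPKM in the WT libraries, 505 to 528 across Hoxa-flox, 289 in Hoxa-del 2, 239 in Hoxa-del 3 and 169.6 in Hoxa-del 1. Hoxa transcripts thus remained in every library labelled Hoxa-del, below all Hoxa-flox libraries but near the WT level in Hoxa-del 2, so Hoxa-del names the label and not a complete loss. The estimated depth was lowest in WT-Cre 2, at 3.93 M fragments, and highest in WT-GFP 3, at 18.6 M, which limits the rows of few fragments most. Members, like all genes, varied more between floxed than between WT replicates: their median log2 SD was 0.0855 for WT-GFP, 0.0847 for WT-Cre, 0.284 for Hoxa-flox and 0.318 for Hoxa-del, and that of all genes 0.116, 0.124, 0.290 and 0.357. Markers of macrophages and of the neutrophil lineage also differed. The neutrophil list held Elane, Mpo, Prtn3, Ctsg, Ltf, Camp, Ngp, Lcn2, S100a8 and S100a9, not all of them genes of mature cells. The 8 macrophage markers summed to 283 to 325 FPKM in WT, 217 to 229 in set A and 53.9 to 66.3 in set B, and the 10 neutrophil markers to 9283 to 11767 in WT and 2916 to 5691 in the floxed libraries. In Hoxa-flox against WT-GFP, tested as described below, 6 of the 8 macrophage markers were called lower, against 13.5% of all genes. The median log2 change of the list was -3.47. Adgre1 and Cd68, with the highest means of the list (55.3 and 91.8 FPKM), changed by 0.83 and -0.62 and were not called. The 6 proliferation genes summed to 229 to 282 in WT, 143 to 165 in set A and 379 to 466 in set B. All 11 markers of leukemic myeloid cells had rows, summing to 1515 to 1761 in WT, 1455 to 1517 in set A and 830 to 975 in set B, whereas the lymphoid (5 of 8 with a row) and erythroid lists (4 of 7) summed to at most 0.639 and 1.68. The leukemic sum hides opposite changes. Of its 10 tested genes 2 were called higher in Hoxa-flox against WT-GFP (Cd34 by 4.52 and Kit by 2.54, log2). Another 2 were called lower (Myb by -1.18 and Csf2ra by -1.25), against 13.3% and 13.5% of all genes. The part of these differences in the results below was not tested, and in bulk RNA fewer cells of a type and less RNA per cell cannot be told apart.

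The mitochondrial mRNAs divided the floxed libraries by set. mt-Co1, the catalytic subunit of complex IV, was at 4102, 4633 and 4381 FPKM in WT-GFP cells, 4532, 4118 and 4681 in WT-Cre cells, 1958, 2464 and 4513 in Hoxa-flox cells and 5285, 2085 and 6676 in Hoxa-del cells (libraries 1, 2 and 3 of each group, in that order here and below). mt-Cytb, the only subunit of complex III encoded in the mitochondrial DNA, was at 1539, 1576 and 1507 FPKM in WT-GFP cells, 1569.8, 1396 and 1484 in WT-Cre cells, 431, 513 and 1546 in Hoxa-flox cells and 1844, 596 and 2934 in Hoxa-del cells. mt-Nd6, a membrane subunit of complex I, was at 513, 512 and 367 FPKM in WT-GFP cells, 505, 447 and 356 in WT-Cre cells, 115, 175 and 607 in Hoxa-flox cells and 1019, 155 and 1067 in Hoxa-del cells. In all 3 mRNAs the libraries of set A lay below all 6 WT libraries and all libraries of set B lay above all of set A. Of all genes tested, 23.1% were higher and 31.7% lower in set B than in set A without overlap. The share of all genes with set A below all WT libraries was not computed. The libraries of set B overlapped the WT range for mt-Co1 and mt-Cytb, through Hoxa-flox 3, and lay above it for mt-Nd6.

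**Figure D1:**
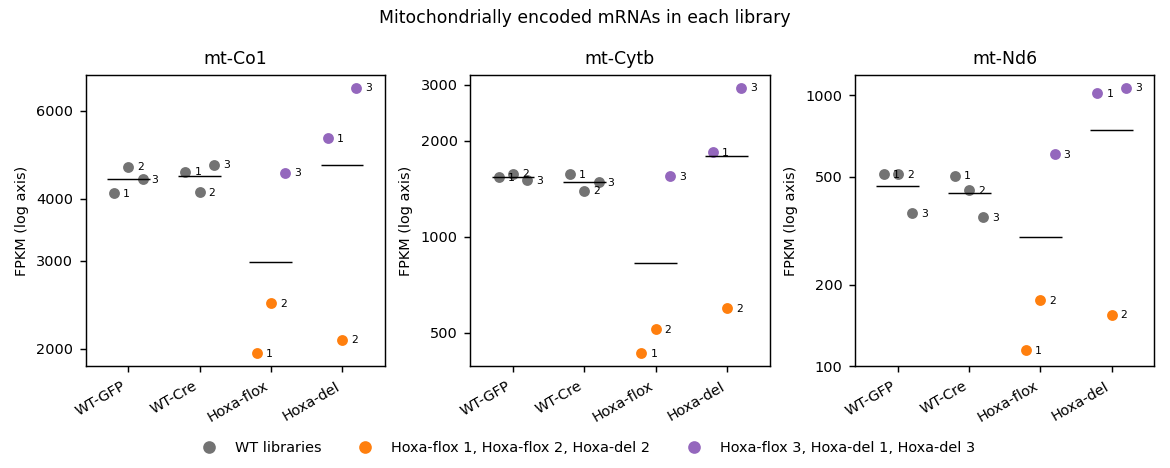
FPKM (log axis) of mt-Co1, mt-Cytb and mt-Nd6 in the 12 libraries, 1 point per library with its replicate number, and the group mean as a line. The libraries Hoxa-flox 1, Hoxa-flox 2 and Hoxa-del 2 lie below every WT library in each panel, and the other 3 floxed libraries lie within or above the WT range.

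Because each floxed group mixed the sets, the group means carried large errors. mt-Co1 averaged 4372 ± 266 FPKM for WT-GFP, 4444 ± 292 for WT-Cre, 2978 ± 1353 for Hoxa-flox and 4682 ± 2354 for Hoxa-del (mean ± SD, n = 3 each). mt-Cytb averaged 1541 ± 34.6, 1483 ± 87.0, 830.1 ± 621 and 1792 ± 1169.8 FPKM, and mt-Nd6 464 ± 83.8, 436 ± 75.3, 299 ± 269 and 747 ± 513, in the same order. Differences between groups were tested with limma on log2(FPKM + 1), in 1 fit over 13169 symbols with Benjamini-Hochberg adjustment, and called at an adjusted p under 0.05. In Hoxa-flox against WT-GFP the log2 change was -0.64 (SE 0.44, limma adjusted p = 0.321) for mt-Co1, -1.14 (SE 0.56, limma adjusted p = 0.164) for mt-Cytb and -0.99 (SE 0.72, limma adjusted p = 0.351) for mt-Nd6. None of these passed, and in each the groups intermixed only through Hoxa-flox 3. In Hoxa-del against WT-Cre the changes were -0.08, 0.00 and 0.36 (limma adjusted p = 0.916, 0.998 and 0.76), with Hoxa-del 2 below and Hoxa-del 1 and 3 above the WT-Cre libraries.

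With only the floxed libraries of set A beside all WT libraries, all 3 mRNAs were called lower in both genotype comparisons, with log2 changes of -0.99, -1.71 and -1.69 against WT-GFP and -1.09, -1.31 and -1.47 against WT-Cre. With only set B the changes were 0.05, 0.01 and 0.40 against WT-GFP, none called. Against WT-Cre they were 0.42, 0.65 and 1.27, with mt-Cytb and mt-Nd6 called higher. These calls describe libraries that were grouped from the same data, and each set left 1 library in one of the floxed groups, which was taken to vary like the others. The background was high in such fits: 56.4% and 57.6% of all genes were called with set A, and 42.7% and 45.7% with set B, in the 2 comparisons.

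The proportions among the mitochondrial mRNAs also differed between libraries. The ratio of mt-Co1 to mt-Cytb was 2.66 to 3.16 in the WT libraries, 4.54, 4.81 and 3.50 in the libraries of set A, and 2.92, 2.87 and 2.28 in Hoxa-flox 3, Hoxa-del 1 and Hoxa-del 3. In set A mt-Co1 was thus reduced less than mt-Cytb, and the ratios of set A lay above those of all other libraries. The ratio of mt-Nd6 to mt-Cytb was 0.240 to 0.333 in WT, 0.260 to 0.342 in set A, and 0.393, 0.553 and 0.364 in Hoxa-flox 3, Hoxa-del 1 and Hoxa-del 3. The libraries of set B thus held the 3 highest ratios, the lowest of them just above the highest of set A.

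The tRNA rows did not behave as 1 group. mt-Tf, the first gene of the heavy-strand precursor, was at 1935, 2486 and 2152 FPKM in WT-GFP cells, 2437, 2187 and 2221 in WT-Cre cells, 575, 763 and 2734 in Hoxa-flox cells and 2888, 993 and 4593 in Hoxa-del cells. The libraries of set A lay below all WT libraries and those of set B above them, and the ratio to mt-Cytb stayed between 1.26 and 1.77 in all 12 libraries. mt-Ta was at 57.9, 168 and 147 FPKM in WT-GFP cells, 199.5, 211 and 184 in WT-Cre cells, 86.3, 301 and 405 in Hoxa-flox cells and 525, 623 and 432 in Hoxa-del cells. Here the sets overlapped: the highest library was Hoxa-del 2, of set A, and the lowest were WT-GFP 1 and Hoxa-flox 1. Its log2 change was 0.95 (SE 0.52, limma adjusted p = 0.207) in Hoxa-flox against WT-GFP and 1.39 (SE 0.52, limma adjusted p = 0.0708) in Hoxa-del against WT-Cre, where the groups did not overlap. mt-Tp was listed at 6.16, 0 and 0 FPKM in WT-GFP cells, 5.75, 0 and 0 in WT-Cre cells, 0, 0 and 5.06 in Hoxa-flox cells and 0, 0 and 5.82 in Hoxa-del cells. A row of its length is worth 0.802 to 3.80 FPKM for 1 fragment at the estimated depths, so these values rest on a few fragments and no change was read from them.

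Set against the nuclear members, the mitochondrial genes were the more variable class. The 47 nuclear members summed to 3232 to 3867 FPKM in the WT libraries, 3950, 4176 and 4509 in set A, and 5135, 3286 and 4182 in Hoxa-flox 3, Hoxa-del 1 and Hoxa-del 3. The 3 mitochondrial mRNAs with a row summed to 5960 to 6722 FPKM in WT, 2504, 3153 and 2837 in set A, and 6666, 8149 and 10678 in those 3 libraries. Their ratio was 1.59 to 2.02 in WT, 0.634, 0.755 and 0.629 in set A and 1.30, 2.48 and 2.55 in set B. The nuclear members were thus above their WT sum in all libraries of set A while the mitochondrial mRNAs were below theirs. With the tRNA rows included, the ratio averaged 2.38 ± 0.271 for WT-GFP, 2.69 ± 0.157 for WT-Cre, 1.24 ± 0.589 for Hoxa-flox and 2.75 ± 1.53 for Hoxa-del (mean ± SD, n = 3). The Hoxa-flox libraries, at 0.801, 1.01 and 1.91, all lay below the WT-GFP libraries, which began at 2.11, whereas the Hoxa-del libraries, at 3.52, 0.988 and 3.76, lay on both sides of the WT-Cre range. The Hoxa-flox library nearest to WT was the one of set B. In WT-GFP the row mt-Tf, 68 bases long, averaged 2191 FPKM, beside 8695 FPKM for all mitochondrial rows together. Whether so short a row measures the tRNA or its precursor was not tested.

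**Figure D2:**
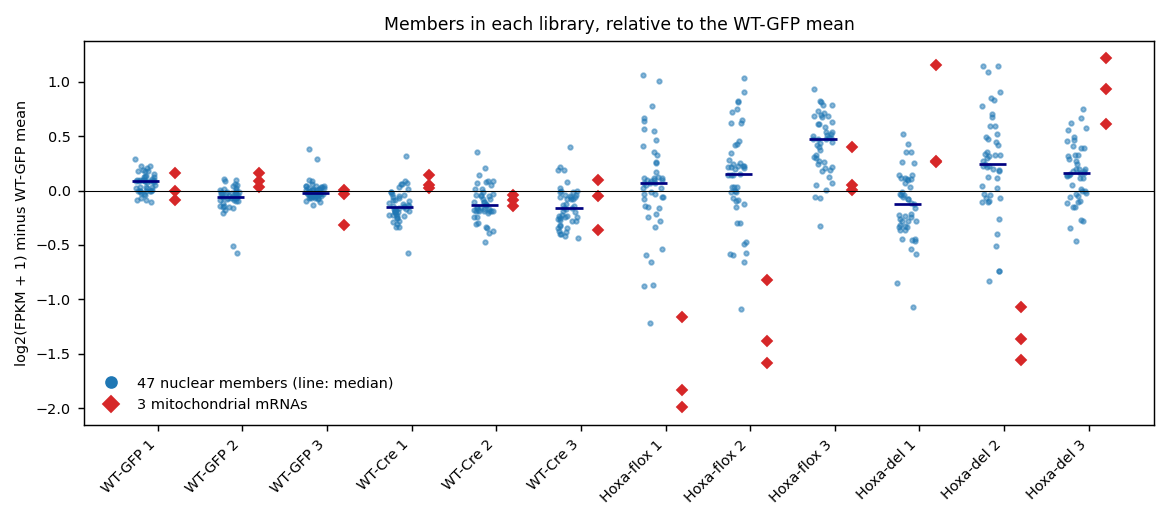
log2(FPKM + 1) of every nuclear member (blue circles, line at their median) and of the 3 mitochondrial mRNAs (red diamonds) in each library, minus the mean of the WT-GFP libraries. The nuclear medians stay between -0.16 and 0.48, and the median mitochondrial mRNA lies between -1.83 and 0.93.

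Member by member, the nuclear genes were compared with the WT-GFP mean in each library. Their median difference from it was -0.16 to -0.13 in the WT-Cre libraries, 0.07, 0.15 and 0.24 in set A, and 0.48, -0.12 and 0.16 in Hoxa-flox 3, Hoxa-del 1 and Hoxa-del 3. In Hoxa-flox 3, 44 of 47 nuclear members lay above the WT-GFP mean, against 51.1% of all genes tested. Hoxa-del 1 had 15 of 47 above it, against 48.2% of all genes. Both libraries belong to set B, whose proliferation sums all lay above the WT range.

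Between genotypes few nuclear members were called. The fit shared 1 spread over groups that mix the floxed sets, so a member not called was not shown to be unchanged. In Hoxa-flox against WT-GFP 7 of 53 members were called, 6 higher and 1 lower, all of them nuclear, against 26.8% of all genes tested (13.3% higher and 13.5% lower). The median log2 change was 0.21 over the 47 nuclear members, -0.99 over the 3 mitochondrial mRNAs and 0.00 over all genes, and 38 of 47 nuclear changes were above 0. In Hoxa-del against WT-Cre 5 members were called, 4 higher and 1 lower, against 27.2% of all genes (13.0% higher and 14.2% lower). There the medians were 0.23 for the nuclear members, 0.00 for the mitochondrial mRNAs and 0.00 for all genes, and 37 of 47 nuclear changes were above 0. The shares of members called were below the background in both comparisons. The comparisons share no library, though they share 1 estimate of the spread and the same difference of genotype, strain label and leukemia origin. All 5 members called in Hoxa-del against WT-Cre were among the 7 called in Hoxa-flox against WT-GFP: Uqcrfs1, Ndufa10, Ndufv1 and Cox8a higher and Cox5a lower. The share of all genes called in both was not computed, so this overlap is not read as a result about the members.

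**Figure D3:**
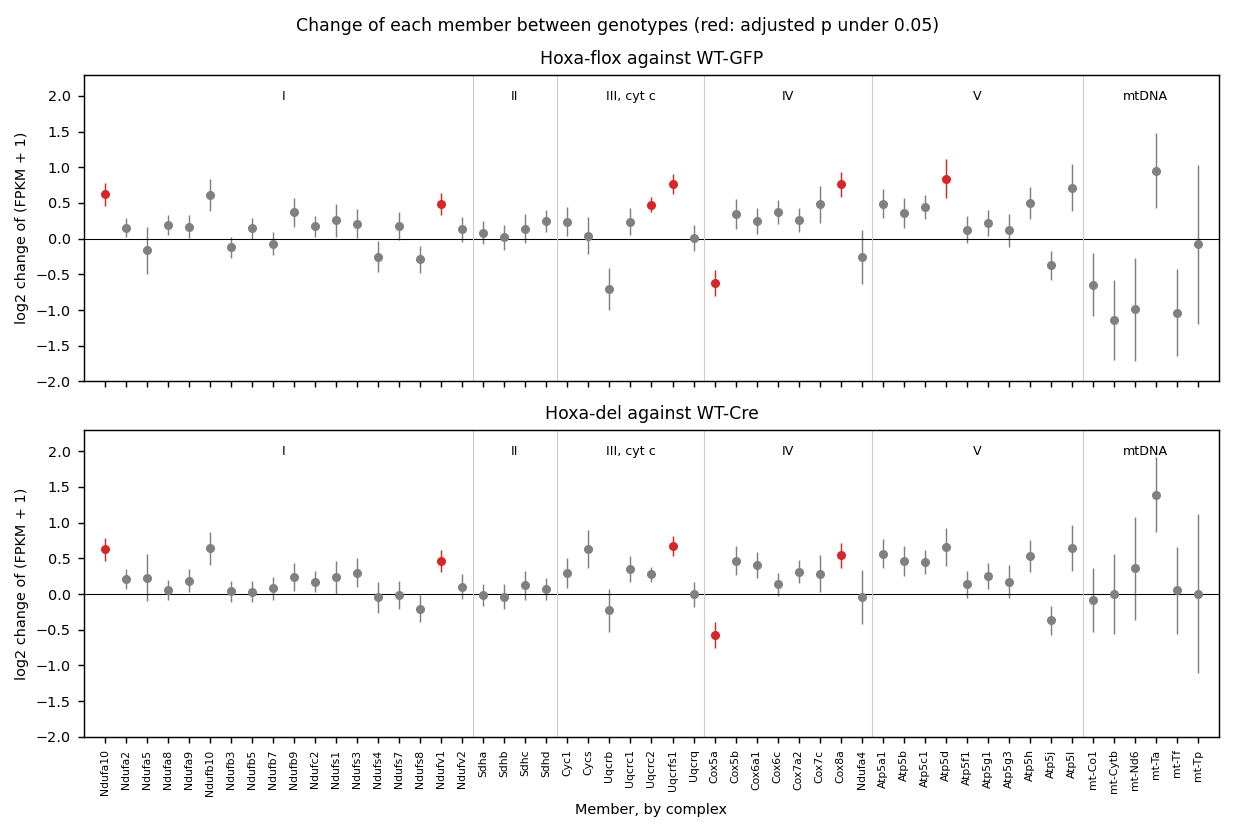
log2 change of FPKM + 1 (points) with its standard error (bars) for the 53 members, ordered by complex, in Hoxa-flox against WT-GFP (top) and Hoxa-del against WT-Cre (bottom). Members with an adjusted p under 0.05 are red (7 and 5); the mitochondrial mRNAs at the right have the wide errors of the mixed library sets.

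Complex I takes electrons from NADH, and 2 of its 18 nuclear members were called, both higher, in each genotype comparison, near the 13.3% and 13.0% of all genes called higher. Ndufa10 (chr1:92439010-92473860), an accessory subunit, was at 35.7, 38.7 and 33.2 FPKM in WT-GFP cells, 28.8, 31.3 and 35.7 in WT-Cre cells, 52.8, 59.7 and 55.2 in Hoxa-flox cells and 38.4, 58.9 and 54.0 in Hoxa-del cells. Ndufv1 (chr19:4007384-4012806), the core subunit that binds FMN and accepts electrons from NADH, was at 28.1, 27.9 and 26.9 FPKM in WT-GFP cells, 21.8, 22.2 and 24.5 in WT-Cre cells, 41.5, 43.0 and 33.4 in Hoxa-flox cells and 27.0, 39.4 and 30.1 in Hoxa-del cells. For both genes the floxed libraries lay above their WT counterparts without overlap. Ndufa10 changed by 0.62 (SE 0.16, limma adjusted p = 0.0149) and 0.62 (SE 0.16, limma adjusted p = 0.0149) in the 2 comparisons, and Ndufv1 by 0.48 (SE 0.15, limma adjusted p = 0.0366) and 0.46 (SE 0.15, limma adjusted p = 0.0446). The rise of Ndufv1 was larger in the libraries of set A than in those of set B, which did not overlap.

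The next smallest adjusted p of complex I in Hoxa-flox against WT-GFP belonged to Ndufb10, Ndufb9 and Ndufs8. Ndufb10, an accessory subunit of the membrane arm, was at 83.8, 66.8 and 64.9 FPKM in WT-GFP cells, 59.6, 54.3 and 56.2 in WT-Cre cells, 123, 111 and 97.3 in Hoxa-flox cells and 65.5, 134 and 79.9 in Hoxa-del cells, and changed by 0.61 (SE 0.23, limma adjusted p = 0.0689) and 0.64 (SE 0.23, limma adjusted p = 0.0585). All its floxed libraries lay above their WT counterparts, highest in set A. Ndufb9, another accessory subunit of that arm, was at 80.6, 72.9 and 73.0 FPKM in WT-GFP cells, 73.2, 63.4 and 65.5 in WT-Cre cells, 96.9, 102 and 95.1 in Hoxa-flox cells and 58.4, 114 and 75.3 in Hoxa-del cells, a change of 0.37 (SE 0.20, limma adjusted p = 0.201) and 0.24 (SE 0.20, limma adjusted p = 0.42). Ndufs8, a core iron-sulfur subunit, was at 54.8, 49.1 and 50.7 FPKM in WT-GFP cells, 47.5, 45.7 and 38.8 in WT-Cre cells, 40.5, 36.9 and 49.4 in Hoxa-flox cells and 28.1, 47.6 and 40.3 in Hoxa-del cells, with changes below 0 of -0.29 (SE 0.19, limma adjusted p = 0.288) and -0.21 (SE 0.19, limma adjusted p = 0.456). The groups overlapped for Ndufs8 in both comparisons, and for Ndufb9 in the second. The most abundant nuclear member of the complex, the accessory subunit Ndufb7, was at 121, 96.0 and 104 FPKM in WT-GFP cells, 92.9, 89.5 and 83.6 in WT-Cre cells, 113, 86.2 and 107 in Hoxa-flox cells and 76.8, 108 and 98.6 in Hoxa-del cells, which gave changes of -0.07 and 0.08 (limma adjusted p = 0.799 and 0.767). The other 12 members (Ndufa2, Ndufa5, Ndufa8, Ndufa9, Ndufb3, Ndufb5, Ndufc2, Ndufs1, Ndufs3, Ndufs4, Ndufs7 and Ndufv2) had means of 12.6 to 75.5 FPKM. Their changes ran from -0.25 to 0.26 in Hoxa-flox against WT-GFP, 9 above 0, and from -0.05 to 0.30 in Hoxa-del against WT-Cre, 10 above 0.

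Complex II, which is wholly nuclear encoded and also belongs to the tricarboxylic acid cycle, showed no called member. Sdha, the flavoprotein that oxidises succinate, was at 53.7, 54.1 and 56.6 FPKM in WT-GFP cells, 47.6, 60.6 and 53.4 in WT-Cre cells, 58.7, 49.3 and 68.1 in Hoxa-flox cells and 46.3, 51.2 and 63.1 in Hoxa-del cells. Sdhb, the iron-sulfur subunit, was at 41.5, 37.0 and 38.4 FPKM in WT-GFP cells, 35.1, 37.8 and 36.9 in WT-Cre cells, 35.1, 36.3 and 48.1 in Hoxa-flox cells and 28.4, 45.6 and 34.9 in Hoxa-del cells. The groups overlapped for both. Of the membrane anchors, Sdhc was at 38.8, 30.6 and 33.4 FPKM in WT-GFP cells, 29.7, 30.1 and 27.0 in WT-Cre cells, 32.8, 40.9 and 39.7 in Hoxa-flox cells and 22.4, 42.9 and 32.6 in Hoxa-del cells, and Sdhd was at 61.2, 60.5 and 61.5 FPKM in WT-GFP cells, 58.5, 54.8 and 61.0 in WT-Cre cells, 62.0, 70.2 and 87.3 in Hoxa-flox cells and 50.3, 66.9 and 67.9 in Hoxa-del cells. The groups overlapped for Sdhc, and Sdhd was higher in every Hoxa-flox than in every WT-GFP library. In Hoxa-flox against WT-GFP Sdha changed by 0.09, Sdhb by 0.02, Sdhc by 0.14 and Sdhd by 0.24 (SE 0.16, 0.17, 0.20 and 0.16; limma adjusted p = 0.284 for Sdhd and above for the rest). In Hoxa-del against WT-Cre the changes were -0.01, -0.04, 0.12 and 0.07. Hoxa-del 1 was the lowest floxed library for all 4 subunits.

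Complex III held the member with the smallest adjusted p. Uqcrfs1 (chr13:30540308-30545362), the Rieske iron-sulfur protein that passes electrons on to cytochrome c1, was at 37.1, 32.0 and 32.5 FPKM in WT-GFP cells, 30.6, 26.0 and 35.7 in WT-Cre cells, 54.2, 60.2 and 60.2 in Hoxa-flox cells and 43.5, 54.6 and 50.3 in Hoxa-del cells. Every floxed library lay above every WT library. It rose by 0.76 (SE 0.14, limma adjusted p = 0.00232) in Hoxa-flox against WT-GFP and by 0.67 (SE 0.14, limma adjusted p = 0.00511) in Hoxa-del against WT-Cre. Uqcrc2 (chr7:120635176-120659524), one of the core proteins, was at 50.3, 44.9 and 45.4 FPKM in WT-GFP cells, 44.1, 44.3 and 44.9 in WT-Cre cells, 64.9, 63.0 and 68.6 in Hoxa-flox cells and 51.8, 58.8 and 51.8 in Hoxa-del cells. It rose by 0.48 (SE 0.11, limma adjusted p = 0.00724) in Hoxa-flox against WT-GFP, and its change of 0.28 (SE 0.11, limma adjusted p = 0.0808) in Hoxa-del against WT-Cre did not pass although those groups did not overlap either. The other core protein, Uqcrc1, was at 81.9, 73.0 and 75.0 FPKM in WT-GFP cells, 65.5, 67.1 and 61.3 in WT-Cre cells, 80.2, 84.8 and 109 in Hoxa-flox cells and 62.9, 107 and 84.2 in Hoxa-del cells, changes of 0.24 (SE 0.19, limma adjusted p = 0.384) and 0.35 (SE 0.19, limma adjusted p = 0.191).

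The small subunits of complex III differed from these. Uqcrb, a small matrix-side subunit, was at 73.6, 68.3 and 66.6 FPKM in WT-GFP cells, 72.9, 61.9 and 66.6 in WT-Cre cells, 29.3, 32.1 and 79.3 in Hoxa-flox cells and 59.6, 48.5 and 64.2 in Hoxa-del cells. It was lowest in the 3 libraries of set A, all below the WT range, while set B lay near that range, and the group changes of -0.71 (SE 0.30, limma adjusted p = 0.108) and -0.23 (SE 0.30, limma adjusted p = 0.622) did not pass. Uqcrq, the most abundant nuclear member of the complex, was at 209.6, 174 and 172 FPKM in WT-GFP cells, 164, 162 and 155 in WT-Cre cells, 201, 183 and 176 in Hoxa-flox cells and 127, 211 and 152 in Hoxa-del cells, with changes of 0.01 and -0.01 (limma adjusted p = 0.971 and 0.984). Cyc1, cytochrome c1, and Cycs, soluble cytochrome c, had means of 47.6 and 1.70 FPKM and changes of 0.24 and 0.04 in the first comparison and 0.30 and 0.63 in the second, none called. Cycs, like Atp5l and Cox7c, has processed pseudogenes, and how reads shared with such copies were counted is not given in the sources used here, so the levels of these 3 rows are uncertain.

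Complex IV had a called member in each direction. Cox8a (chr19:7215153-7217616), a small membrane subunit and the most abundant nuclear member of this complex, was at 209.8, 184 and 196 FPKM in WT-GFP cells, 164, 204 and 167 in WT-Cre cells, 306, 348 and 348 in Hoxa-flox cells and 214, 338 and 240.3 in Hoxa-del cells. Cox5a (chr9:57521274-57532426), a subunit on the matrix side, was at 188, 195 and 181 FPKM in WT-GFP cells, 159.7, 165 and 172 in WT-Cre cells, 102, 119 and 149 in Hoxa-flox cells and 89.1, 112 and 136 in Hoxa-del cells. Cox8a was higher in all floxed libraries than in the WT libraries of the same virus, and Cox5a lower. Cox8a rose by 0.76 (SE 0.18, limma adjusted p = 0.00945) and 0.54 (SE 0.18, limma adjusted p = 0.0466), and Cox5a changed by -0.62 (SE 0.18, limma adjusted p = 0.024) and -0.57 (SE 0.18, limma adjusted p = 0.0341). Cox5a was the only member called lower in either comparison. Cox6c was at 112, 128 and 123 FPKM in WT-GFP cells, 120.0, 117 and 119 in WT-Cre cells, 129, 153 and 195 in Hoxa-flox cells and 144, 112 and 137 in Hoxa-del cells, higher in every Hoxa-flox than in every WT-GFP library but overlapping in Hoxa-del. Its changes were 0.37 (SE 0.16, limma adjusted p = 0.118) and 0.14 (SE 0.16, limma adjusted p = 0.589). Cox7c was at 8.60, 5.19 and 10.5 FPKM in WT-GFP cells, 6.21, 8.27 and 10.6 in WT-Cre cells, 8.60, 13.8 and 12.2 in Hoxa-flox cells and 8.71, 11.6 and 10.5 in Hoxa-del cells, with overlapping groups and changes of 0.48 and 0.29. The other 4 members (Cox5b, Cox6a1, Cox7a2 and Ndufa4) had means of 57.1 to 152 FPKM and changes of -0.25 to 0.35 and -0.05 to 0.47, with 3 of 4 above 0 in each comparison.

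**Figure D4:**
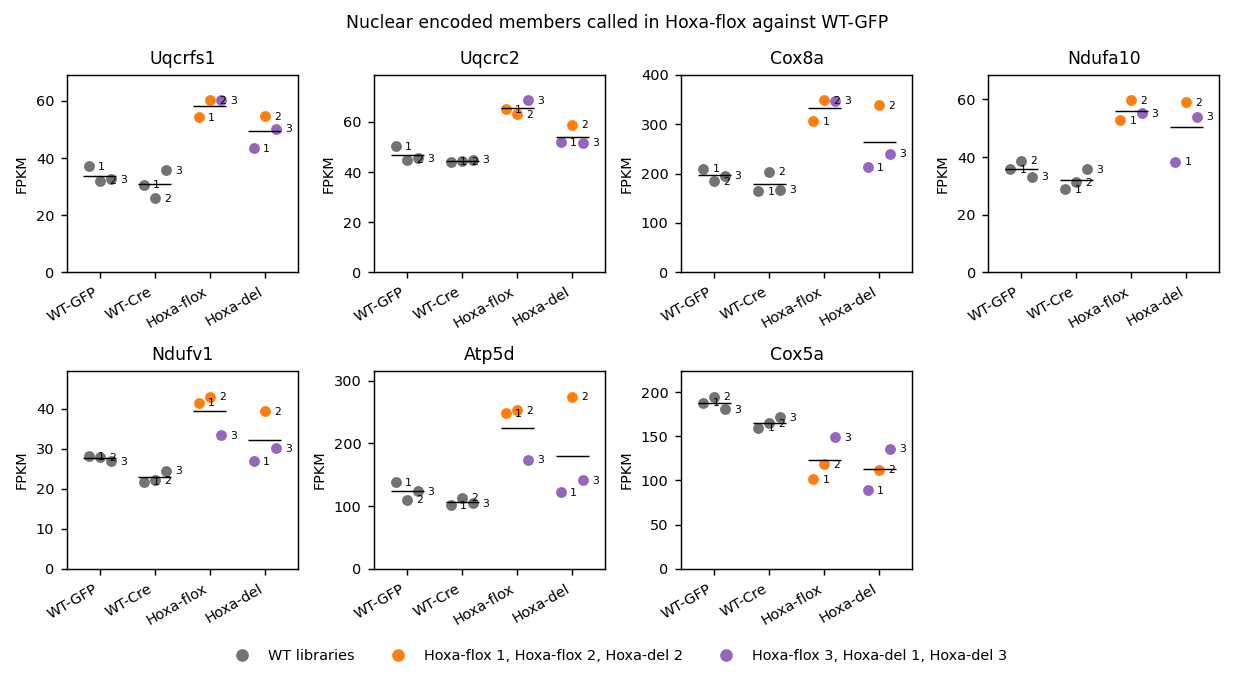
FPKM of the 7 nuclear members called in Hoxa-flox against WT-GFP, 1 point per library with its replicate number and a line at the group mean; each axis starts at 0. Hoxa-flox lies above WT-GFP in the first 6 panels and below it for Cox5a, and for Ndufv1 and Atp5d the libraries Hoxa-flox 1, Hoxa-flox 2 and Hoxa-del 2 lie highest.

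In ATP synthase 1 of 10 nuclear members was called, in Hoxa-flox against WT-GFP, below the 26.8% of all genes. Atp5d (chr10:80138632-80145818), the delta subunit of the rotating central stalk, was at 138, 110.3 and 124 FPKM in WT-GFP cells, 102, 113 and 104 in WT-Cre cells, 248, 254 and 174 in Hoxa-flox cells and 122, 275 and 141 in Hoxa-del cells. It rose by 0.84 (SE 0.27, limma adjusted p = 0.0392), and its change of 0.66 (SE 0.27, limma adjusted p = 0.0958) in the second comparison did not pass. The libraries of set A lay above all others, and the change against WT-GFP was 1.02 with set A alone and 0.49 with set B alone. Atp5c1, the gamma subunit of the stalk, was at 80.5, 79.1 and 83.0 FPKM in WT-GFP cells, 80.3, 76.6 and 77.7 in WT-Cre cells, 107, 111 and 113 in Hoxa-flox cells and 86.9, 145 and 97.7 in Hoxa-del cells, changes of 0.45 (SE 0.17, limma adjusted p = 0.0707) and 0.45 (SE 0.17, limma adjusted p = 0.0679). Atp5a1, the alpha subunit of the catalytic head, was at 174, 162 and 156 FPKM in WT-GFP cells, 146, 143 and 148 in WT-Cre cells, 196, 199.7 and 314 in Hoxa-flox cells and 177, 219.6 and 261 in Hoxa-del cells, changes of 0.49 (SE 0.20, limma adjusted p = 0.0942) and 0.57 (SE 0.20, limma adjusted p = 0.0566). For both genes every floxed library lay above every WT library, and neither passed. Atp5h, a subunit of the peripheral stalk, was at 153, 116 and 136 FPKM in WT-GFP cells, 137, 136 and 133 in WT-Cre cells, 169, 210.1 and 195 in Hoxa-flox cells and 161, 297 and 159 in Hoxa-del cells, with changes of 0.50 (SE 0.23, limma adjusted p = 0.125) and 0.54 (SE 0.23, limma adjusted p = 0.104). The catalytic beta subunit Atp5b, the most abundant nuclear member of all, was at 446, 414 and 409 FPKM in WT-GFP cells, 361, 386 and 348 in WT-Cre cells, 443, 499 and 729 in Hoxa-flox cells and 407, 522 and 595 in Hoxa-del cells, changes of 0.36 (SE 0.21, limma adjusted p = 0.229) and 0.46 (SE 0.21, limma adjusted p = 0.13). Hoxa-flox 3 was its highest library and Hoxa-del 1 its lowest floxed one. The other 5 members (Atp5f1, Atp5g1, Atp5g3, Atp5j and Atp5l) had means of 3.38 to 128 FPKM and changes of -0.37 to 0.72 and -0.37 to 0.64, with 4 of 5 above 0 in each comparison.

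The calls differed in how they held up over 22 alternatives. Uqcrfs1 passed in all 22 in both comparisons (adjusted p at most 0.014 and 0.0405, limma). Cox8a and Uqcrc2 passed in all 22 in Hoxa-flox against WT-GFP. Ndufa10 passed in 20 there, failing without WT-GFP 3 or without Hoxa-flox 2 (adjusted p up to 0.0654, limma), and in 19 in Hoxa-del against WT-Cre, failing without WT-Cre 1, without Hoxa-del 3 and with only the groups compared (up to 0.074). Cox5a failed in Hoxa-flox against WT-GFP without any 1 of WT-GFP 1, 2 or 3 or Hoxa-flox 1 or 2, and with only set B (adjusted p up to 0.214, limma). Atp5d failed without any 1 of the 6 WT libraries or Hoxa-flox 1 or 2, and with no filter on low values (up to 0.129), and Ndufv1 failed without the same libraries or with only set B (up to 0.126). In Hoxa-del against WT-Cre the 3 remaining calls failed in 8 (Cox5a), 11 (Cox8a) and 13 (Ndufv1) alternatives. Leaving out any 1 of the WT libraries ended the call of Cox5a and Ndufv1, and any but WT-Cre 2 that of Cox8a. Leaving out Hoxa-del 1 also ended that of Cox5a, and leaving out Hoxa-flox 1, Hoxa-flox 2, Hoxa-del 2 or Hoxa-del 3 those of Cox8a and Ndufv1 (limma adjusted p up to 0.101, 0.145 and 0.13 for Cox5a, Cox8a and Ndufv1). With only the groups compared all 3 failed, and with no filter on low values Cox8a and Ndufv1 failed. No called change reversed its sign.

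With the fits restricted to 1 set of floxed libraries, more nuclear members were called, as were more genes at large. With set A, 12 of 47 nuclear members were called higher and 8 lower in Hoxa-flox against WT-GFP, where 56.4% of all genes were called, and 27 higher and 5 lower in Hoxa-del against WT-Cre, where 57.6% were. With set B these counts were 21 higher and 0 lower, against 42.7% of all genes, and 9 higher and 1 lower, against 45.7%. Uqcrfs1, Ndufa10, Cox8a, Atp5a1 and Atp5c1 were called higher in all 4 of these fits, and no member was called lower in all 4. These 5 were singled out after their values were seen. The shares of all genes in these fits count both directions together, so they are no measure for the higher or the lower counts alone.

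Directly between the sets, 4 of 6 mitochondrial members (mt-Co1, mt-Cytb, mt-Nd6 and mt-Tf) were higher in every library of set B than in every library of set A, and 0 were lower. Of the 47 nuclear members 6 were higher in set B without overlap (Atp5j, Ndufa4, Ndufb3, Ndufs1, Ndufs4 and Uqcrb) and 7 lower (Atp5d, Atp5l, Ndufb10, Ndufb9, Ndufs7, Ndufv1 and Uqcrq), and 34 overlapped. Over all genes tested, 23.1% were higher and 31.7% lower in set B without overlap between the sets. Members of complex I stood on both sides, 3 higher and 4 lower in set B. Ndufa4, a subunit of complex IV despite its name, was at 57.6 to 69.5 FPKM in set A and 89.1 to 172 in set B, and Ndufs1, the largest core subunit of complex I, at 14.9 to 21.0 and 26.0 to 31.5. These genes were named after their values were seen.

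Cre was compared with the control virus within WT cells, where the cluster is not floxed, and within floxed cells, where the Hoxa sum also fell, in comparisons that share no library. In WT-Cre against WT-GFP 0 of 53 members were called, 1 had an unadjusted p under 0.05 (limma), and 0.0152% of all genes were called. That fit shares its spread with the more variable floxed libraries. With only the WT groups in the fit 17 members had an unadjusted p under 0.05 (limma), and with array weights 15. Again 0 members were called, beside 5 and 18 genes in all. The median log2 change was -0.14 over the nuclear members, -0.06 over the mitochondrial mRNAs and -0.03 over all genes. The WT-Cre libraries lay below all WT-GFP libraries for 22 nuclear members (46.8%), against 16.3% of all genes, and above them for 0 nuclear members and 1 mitochondrial one (mt-Ta), against 9.31%. The count of 22 became 18 (38.3%, against 16.1%) with equal upper quartiles and 15 (31.9%, against 11.0%) with scaling by median ratios, both chosen after seeing the data. The noncoding RNAs Malat1, Kcnq1ot1 and Gas5 (3 of a list of 5 had a row), of which Malat1 and Kcnq1ot1 stay in the nucleus, summed to 1313 to 1883 FPKM in WT-GFP and 2343 to 2429 in WT-Cre, and their part in this pattern was not tested. The nuclear changes ranged from -0.35 (Ndufc2) to 0.16 (Ndufs1).

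In Hoxa-del against Hoxa-flox 0 of 53 members were called, 3 had an unadjusted p under 0.05 (limma), and 0.0304% of all genes were called. The median was -0.14 over the nuclear members, with 38 of 47 below 0, 1.08 over the mitochondrial mRNAs and -0.06 over all genes. Malat1, Kcnq1ot1 and Gas5 summed to 1091 to 1315 FPKM in Hoxa-flox, and to 2349.7, 1247 and 2876 in Hoxa-del, and their part in the results was not tested. Uqcrc2 and Ndufc2 were lower in every Hoxa-del than in every Hoxa-flox library, against 4.14% of all genes, and mt-Ta was higher, against 2.25%. mt-Co1 changed by 0.59 (SE 0.44, limma adjusted p = 0.747), mt-Cytb by 1.08 (SE 0.56, limma adjusted p = 0.729) and mt-Nd6 by 1.26 (SE 0.72, limma adjusted p = 0.737). Each of these compares a group of 2 libraries of set A and 1 of set B with a group of 1 and 2. With the set as a term the median of the mitochondrial mRNAs was 0.45, and with set A alone the 3 changes were -0.07, 0.34 and 0.13, with set B alone 0.40, 0.59 and 0.78, none called. The nuclear median was 0.13 with set A alone, -0.42 with set B alone and 0.01 without Hoxa-del 1. Without Hoxa-del 2, 5 members were called, as were 787 genes in all.

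**Figure D5:**
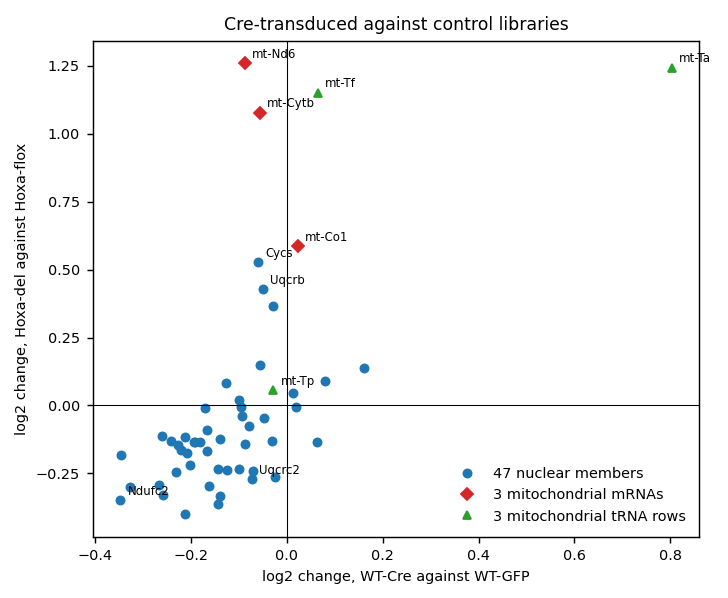
log2 change of each member in WT-Cre against WT-GFP (horizontal) and in Hoxa-del against Hoxa-flox (vertical), for 47 nuclear members (circles), 3 mitochondrial mRNAs (diamonds) and 3 mitochondrial tRNA rows (triangles). Most nuclear members lie below 0 on both axes (36 of 47), and the mitochondrial mRNAs lie near 0 on the horizontal axis and between 0.59 and 1.26 on the vertical axis. Of all 13169 genes tested, 5628 lie above 0 on the horizontal axis and 5437 on the vertical axis. The vertical axis compares groups that hold the floxed sets in unequal numbers.

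The difference between the Cre changes of the floxed and WT cells was itself tested. No member passed (0 of 53, and 0 at an unadjusted p under 0.05, limma), and 0.00759% of all genes did. The medians of this difference were 0.01 for the nuclear members and 1.13 for the mitochondrial mRNAs. It was 1.13 (SE 0.80, limma adjusted p = 1) for mt-Cytb, and 0.52 as the median of the mitochondrial mRNAs with the set as a term. With set A or set B alone, and 1 Hoxa-del or 1 Hoxa-flox library left, 0 members passed either.

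Other genes of the mitochondrial system were read in Hoxa-flox against WT-GFP from 7 further lists. All 7 are read against the share of all genes called in this comparison, 13.3% higher and 13.5% lower. Of 28 other subunits of the chain with a tested row 3 were called higher and 0 lower, both below those shares. Usmg5, a small ATP synthase subunit, was at 6.59, 5.83 and 6.67 FPKM in WT-GFP cells, 7.19, 7.61 and 7.20 in WT-Cre cells, 10.5, 18.9 and 21.3 in Hoxa-flox cells and 16.5, 21.0 and 20.7 in Hoxa-del cells, a change of 1.23 (SE 0.22, limma adjusted p = 0.0016). Cox7a2l, of the same list, was at 49.2, 50.1 and 51.5 FPKM in WT-GFP cells, 50.8, 44.3 and 45.2 in WT-Cre cells, 197, 196 and 95.5 in Hoxa-flox cells and 96.1, 227 and 72.1 in Hoxa-del cells, a change of 1.60 (SE 0.38, limma adjusted p = 0.00899). Cox7a2l was highest in the libraries of set A. Of 40 assembly factors 3 were called higher and 1 lower, also below them. They included Cox15, which makes heme A for complex IV, with a change of 1.20 (SE 0.21, limma adjusted p = 0.00134), and Uqcc1, an assembly factor of complex III, with 0.43 (SE 0.13, limma adjusted p = 0.0285).

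Of 29 mitochondrial DNA and RNA factors 2 were called higher and 4 lower, the latter close to the 13.5% of all genes. Peo1, the replicative helicase of the mitochondrial DNA, was at 2.44, 2.03 and 2.05 FPKM in WT-GFP cells, 1.96, 1.66 and 2.21 in WT-Cre cells, 7.59, 7.36 and 7.37 in Hoxa-flox cells and 6.52, 7.47 and 8.30 in Hoxa-del cells, a change of 1.41 (SE 0.14, limma adjusted p = 2.43e-05). It was higher in all floxed libraries, of both sets, than in any WT library, unlike the mitochondrial mRNAs. Rexo2, an oligoribonuclease, was at 57.7, 63.0 and 56.8 FPKM in WT-GFP cells, 60.6, 57.9 and 56.4 in WT-Cre cells, 33.1, 31.1 and 43.5 in Hoxa-flox cells and 24.3, 39.0 and 30.1 in Hoxa-del cells, a change of -0.72 (SE 0.18, limma adjusted p = 0.0107). It was lower in all floxed than in all WT libraries. The mitochondrial ribosome, which translates the mitochondrial mRNAs, had 11 of 75 proteins called higher, close to the 13.3% of all genes, and 0 lower. Mrpl43 changed by 1.23 (SE 0.16, limma adjusted p = 0.000177) and Mrpl54 by 0.84 (SE 0.17, limma adjusted p = 0.00359). The medians of these 4 lists were 0.22, 0.12, 0.08 and 0.21, beside 0.21 for the nuclear members.

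Of 18 enzymes of the tricarboxylic acid cycle and its entry 2 were called higher and 0 lower, against 13.3% and 13.5% of all genes. Pcx, pyruvate carboxylase, changed by 0.59 (SE 0.15, limma adjusted p = 0.0146), and Cs, citrate synthase, by 0.46 (SE 0.14, limma adjusted p = 0.0316). Of 8 tested tissue isoforms 2 were called higher and 2 lower. This list holds the members Atp5g1 and Atp5g3, and Atp5g2 is also among the other subunits. Cox7a1, the isoform of heart and muscle, was at 2.69, 2.28 and 3.02 FPKM in WT-GFP cells, 1.14, 3.02 and 1.23 in WT-Cre cells, 12.9, 11.3 and 14.0 in Hoxa-flox cells and 3.03, 14.4 and 11.6 in Hoxa-del cells, a change of 1.91 (SE 0.42, limma adjusted p = 0.00643). Ucp2, an uncoupling protein of blood cells, was at 724, 621 and 653 FPKM in WT-GFP cells, 615, 629.8 and 628 in WT-Cre cells, 379, 361 and 324 in Hoxa-flox cells and 219, 434 and 282 in Hoxa-del cells, a change of -0.91 (SE 0.22, limma adjusted p = 0.0108). Ucp2 was lower in all floxed than in all WT libraries, whereas Cox7a1 in Hoxa-del 1 lay only just above the highest WT libraries. Among 8 tested regulators of mitochondrial genes 2 were called higher and 0 lower. Gabpb1, a subunit of the ETS factor GABP, changed by 0.76 (SE 0.16, limma adjusted p = 0.0052), and Myc, a growth regulator, by 0.61 (SE 0.17, limma adjusted p = 0.0197). In WT-Cre against WT-GFP and Hoxa-del against Hoxa-flox these 7 lists had 0 called genes. In Hoxa-del against WT-Cre, where 13.0% of all genes were called higher and 14.2% lower, the calls were 3 higher and 0 lower among the other subunits, 3 and 0 among assembly factors, 3 and 2 among DNA and RNA factors, 7 and 1 in the ribosome, 1 and 0 in the tricarboxylic acid cycle, 1 and 1 among tissue isoforms, and 3 and 0 among regulators.

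Promoters of the nuclear members were examined for the motifs of factors known to act on respiratory genes. RefSeq (GRCm38.p6) gave a promoter for 36 of the 47, and the 250 bases before the start were searched on both strands. The NRF1 motif (GCGCA, any base, GCGC) occurred in 6 of 36 (16.7%), against 3.86% of the 27025 genes with a promoter of this length. The GABP (ETS) motif CCGGAAG occurred in 6 of 36 (16.7%), against 7.05%, and the YY1 motif (AAGATGG followed by CGGC) in 0, against 0.218%. The median GC content was 57.8% in the members and 52.0% in all promoters, and the median number of CG dinucleotides was 15 and 6. The comparison took all genes with a promoter, whether expressed in these cells or not. The part of these differences in the shares was not tested. Atp5h, Cox6a1 and Sdhd held both motifs, and 30 bases around each match are shown with the match in capitals, on the strand of the gene, where each GABP match stands as its reverse complement.
Atp5h, NRF1: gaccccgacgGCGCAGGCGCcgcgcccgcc
Atp5h, GABP: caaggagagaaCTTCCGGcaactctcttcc
Cox6a1, first NRF1: caggaacgggGCGCATGCGCgctctcgctc
Cox6a1, second NRF1: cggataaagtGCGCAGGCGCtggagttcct
Cox6a1, GABP: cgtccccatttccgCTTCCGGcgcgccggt
Sdhd, NRF1: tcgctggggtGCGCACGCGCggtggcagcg
Sdhd, GABP: ccgtctcctgcCTTCCGGttcacgcttcag
All 3 genes lie on the minus strand, at chr11:115420041-115420070 and chr11:115419939-115419968 (Atp5h), chr5:115349101-115349130, chr5:115349056-115349085 and chr5:115348959-115348988 (Cox6a1) and chr9:50603909-50603938 and chr9:50603877-50603906 (Sdhd). The matches began 141 and 38 bases before the start of Atp5h, 162, 117 and 16 before that of Cox6a1 and 79 and 46 before that of Sdhd, and none overlapped another. Atp5h, Cox6a1 and Sdhd changed by 0.50, 0.24 and 0.24 in Hoxa-flox against WT-GFP, none called. Of the 7 members called there, all but Uqcrc2 had a promoter in the table, and 0 of these held a match in this window.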

How the data were processed

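RNA was sequenced from 12 libraries, 4 groups of 3. The authors deposited 1 table of 28042 rows. Its unit is not stated there; the deposited values were taken as FPKM. The submitters' processing notes name STAR, Cufflinks, Cuffdiff 2.2.2.20150701, GRCm38 and mm10, without their roles. All columns matched a library (0 unmatched). Members and gene lists were chosen with earlier results of these data known.

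The 13169 symbols that averaged 1 FPKM or more were tested with limma 3.58.1 (R 4.3.3) on log2(FPKM + 1), in 1 fit of 4 group means with an intensity trend, Benjamini-Hochberg adjustment over all of them and a threshold of 0.05. A fold change on this scale understates changes of low genes. The procedure was tested on simulated data with the same spread in all groups, so not with the wider spread and the library sets of the floxed cells. Whether replicates were separate cultures is not stated, so p-values measure the spread between these libraries. Depth was estimated from the steps of low values. Per-library values are given for all mitochondrial members, for the members of each complex with the smallest adjusted p in Hoxa-flox against WT-GFP, and for the most abundant member of each, and from every other list 2 genes by the same adjusted p are named. Sums and promoter motifs were computed in Python 3.11.15 (pandas 2.3.3, numpy 2.4.6, matplotlib 3.10.9), with positions from GENCODE M21.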

Additional observations from a re-analysis of the deposited data

How the results depend on the processing

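Array weights ranged over all 12 libraries from 0.0881 (Hoxa-del 2) and 0.0967 (Hoxa-flox 3) to 6.05 (WT-GFP 3). With them the genes called in all in Hoxa-flox against WT-GFP rose from 3525 to 9186 of 13169, and the 7 member calls (limma) became 34. They became 24 with only Hoxa-flox 1, Hoxa-flox 2 and Hoxa-del 2 and 22 with only Hoxa-flox 3, Hoxa-del 1 and Hoxa-del 3 as floxed libraries. Leaving out 1 library gave 3 to 13 calls: 3 without WT-GFP 3 or Hoxa-flox 2, 4 without WT-GFP 1 or 2, 11 without Hoxa-del 2 and 13 without Hoxa-flox 3. The genes called in all moved too, to 2405 without WT-GFP 3, 2690 without Hoxa-flox 2, 4648 without Hoxa-del 2 and 4195 without Hoxa-flox 3. In Hoxa-del against WT-Cre the 5 calls became 8 with array weights, 2 with only the groups compared, and 36 and 14 with the same restricted libraries. Leaving out 1 library gave 1 to 11 calls there: 1 without WT-Cre 1, 2 without WT-Cre 3, Hoxa-del 3 or any WT-GFP library, 3 without WT-Cre 2, Hoxa-flox 2 or Hoxa-del 2, 11 if Hoxa-del 1 was left out and 8 if Hoxa-flox 3 was. Genes called in all there numbered 3580 in the main fit, 4813 with array weights and 2399 with only the groups compared. They numbered 2594 without WT-Cre 1, 3750 without Hoxa-del 1 and 4362 without Hoxa-flox 3. In Hoxa-del against Hoxa-flox the 0 calls became 15 with array weights, and leaving out 1 library gave 0 to 5 (5 only when Hoxa-del 2 was left out), and in the difference of the Cre changes 10 with array weights. Array weights gave 5173 and 3452 genes called in all in these comparisons, and leaving out Hoxa-del 2 gave 787 in the first. The causes were not tested. WT-Cre against WT-GFP had 0 member calls in every alternative run, though 17 members had an unadjusted p under 0.05 (limma) with only the groups compared. The median nuclear level of WT-Cre moved from 52.9 to 54.6 FPKM with median ratios, by more than its spread. Of 3270 values of named members under alternatives, 61 lost and 110 gained a call, and 0 called changes turned sign.

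With the replicate number as a block the calls numbered 7, 5, 0, 0 and 0 in the 5 comparisons, and Ndufv1 lost its call in Hoxa-del against WT-Cre. The labels do not say that the numbers pair the libraries. The deviations of same-numbered libraries from their group means correlated at 0.011, -0.00535 and 0.0897 in WT cells and at -0.301, 0.600 and 0.721 in floxed cells. In floxed cells Hoxa-del 2 correlated at 0.612 with Hoxa-flox 1 and at -0.717 with Hoxa-flox 3. These values follow the sets, so they cannot show whether the numbers pair the libraries. Not every library correlated best with its own number.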
